A study of Mus musculus with 9 samples.

Results

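Transcripts of 10 genes that mark macrophages or encode complement C1q were followed in the submandibular salivary gland of irradiated mice. They were the 3 C1q chain genes C1qa, C1qb and C1qc, the lysosomal and lysozyme genes Cd68 and Lyz2, the receptor genes Adgre1, Csf1r and Cx3cr1, and the scavenger receptor genes Mrc1 and Cd163. These 10 genes were taken by name from a list of resident and inflammatory macrophage markers, out of 54532 gene identifiers in the count table, and all 10 passed the filter on low counts. The study measured glands of wild-type (WT) mice after 10 Gy of radiation, with 3 libraries each at 30, 60 and 90 days. Its title concerns muscarinic agonism, calcium and ATP metabolism in degenerated glands. Glands without radiation were not analysed here, all 3 groups carry the same dose, and time after irradiation cannot be told apart from the age of the mice. The sources used here give no age or sex, and nothing in them says that the 3 samples of a group came from separate animals, so p-values measure the spread between these samples.

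Macrophages live in most tissues, where they engulf dead cells and debris and depend on the receptor CSF1R, which binds the growth factors CSF1 and IL-34. C1q is the recognition part of the classical complement pathway, built from A, B and C chains that assemble together, and tissue macrophages are its main producers in many organs. In salivary glands, resident macrophages lie between the acini and ducts.

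The C1q genes are neighbours on 1 strand of chromosome 4 in GRCm38. C1qb (ENSMUSG00000036905) lies at chr4:136880129-136886187, C1qc (ENSMUSG00000036896) at chr4:136889804-136893065 and C1qa (ENSMUSG00000036887) at chr4:136895917-136898803, all on the minus strand. The set of RefSeq (GRCm38.p6) promoter sequences used here held an entry for 7 of the 10 genes, all but Adgre1, Csf1r and C1qa. Each window of 250 bases before the start was searched for GAGGAA, a core bound by the myeloid factor PU.1 and also by other ETS factors. The other strand was searched too, where the motif reads as TTCCTC. A match was found in 4 of the 7 windows, those of Cd68, C1qb, C1qc and Mrc1, and in 23.3% of 32851 promoter windows of the same length. A match describes the letters and is not a measured site. The upstream sequences that hold a match are shown so that members with it can be compared. They run 5′ to 3′ on the strand of the gene, without any base that GENCODE places inside the gene, and the matches are in capitals.
C1qb, chr4:136886201-136886450, minus strand: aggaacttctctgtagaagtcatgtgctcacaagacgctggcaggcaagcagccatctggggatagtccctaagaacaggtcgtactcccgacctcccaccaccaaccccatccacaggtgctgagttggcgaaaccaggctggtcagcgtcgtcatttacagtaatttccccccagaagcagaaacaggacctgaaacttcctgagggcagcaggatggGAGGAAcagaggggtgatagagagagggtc
C1qc, chr4:136893066-136893164, minus strand: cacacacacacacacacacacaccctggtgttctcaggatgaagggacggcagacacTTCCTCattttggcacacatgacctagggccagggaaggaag
Cd68, chr11:69666171-69666420, minus strand: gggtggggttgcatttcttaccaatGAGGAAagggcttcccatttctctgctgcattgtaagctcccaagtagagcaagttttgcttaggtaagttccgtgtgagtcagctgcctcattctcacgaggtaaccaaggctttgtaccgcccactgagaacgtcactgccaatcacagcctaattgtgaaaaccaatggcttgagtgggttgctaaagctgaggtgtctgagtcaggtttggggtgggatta
Mrc1, chr2:14229164-14229391, plus strand: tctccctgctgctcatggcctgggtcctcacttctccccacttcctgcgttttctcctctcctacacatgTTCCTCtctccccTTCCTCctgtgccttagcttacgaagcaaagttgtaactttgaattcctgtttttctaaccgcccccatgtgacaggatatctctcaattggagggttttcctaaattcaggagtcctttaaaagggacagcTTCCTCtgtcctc
The Mrc1 stretch held 3 matches and the other stretches held 1 each. The windows of Cx3cr1, Lyz2 and Cd163 held none. In the same build Adgre1 (ENSMUSG00000004730) lies at chr17:57358691-57483527, Mrc1 (ENSMUSG00000026712) at chr2:14229392-14332057 and Cd163 (ENSMUSG00000008845) at chr6:124304656-124330527, all on the plus strand. Cd68 (ENSMUSG00000018774) lies at chr11:69664213-69666153, Cx3cr1 (ENSMUSG00000052336) at chr9:119901616-120069879 and Lyz2 (ENSMUSG00000069516) at chr10:117277331-117282321, all on the minus strand.

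Library totals ran from 16541396 to 26065856 counts, and the 10 genes together took between 2694 and 12856 counts of a library. Values below are CPM, edgeR's read counts relative to the total of the library, scaled by the trimmed mean of M-values (TMM), and are given for samples 1, 2 and 3 of each time point. One library stood apart in its B and plasma cell markers, a list chosen with earlier results of these data known. The 90-day sample 2 held 60.0 CPM of 7 summed B and plasma cell markers, where the other 8 libraries held 4.39 to 18.1 CPM. Its B cell marker Ms4a1 measured 1.34 CPM against at most 0.18 CPM elsewhere. The changes to 90 days printed for the C1q genes, Lyz2, Cx3cr1, Adgre1 and Mrc1 are also given without it.

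Per kilobase of exon, the level fell in the order Lyz2, C1qb, C1qa, C1qc, Cd68, Csf1r, Adgre1, Cx3cr1, Mrc1 and Cd163. The length counted each base that lies in any GENCODE exon of the gene. It may differ from the length of the transcripts present. C1qa and C1qc had lengths of 1040 and 1931 bases and means of 38.4 and 31.9 CPM, so their distance per kb depends largely on these lengths. Lyz2, the M lysozyme gene of myeloid cells, stood at 63.4 ± 19.9 CPM per kb (SD, n = 9), and C1qb at 41.6 ± 11.03. C1qa had 36.9 ± 12.002 and C1qc 16.5 ± 4.49 CPM per kb. The lysosomal protein gene Cd68 had 7.06 ± 1.63 and Csf1r 6.56 ± 1.38 CPM per kb. Adgre1, which encodes the F4/80 antigen, had 3.71 ± 1.08, and the fractalkine receptor gene Cx3cr1 3.14 ± 0.60 CPM per kb. The mannose receptor gene Mrc1 stood at 1.83 ± 0.44 and the haemoglobin scavenger receptor gene Cd163 at 0.42 ± 0.16 CPM per kb. Most steps of this order held in all 9 libraries. The exceptions were Cd68 over Csf1r, which held in 6 of 9, and Adgre1 over Cx3cr1, which held in 7 of 9. The SD ranges of neighbours overlapped for these pairs and also for Lyz2 and C1qb and for C1qb and C1qa, although the first of each of the latter pairs was the higher in each library.

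The C1q chains showed no difference between time points that passed the test, and their groups overlapped. C1qa measured 22.3, 37.1 and 51.9 CPM at 30 days, 41.5, 29.3 and 27.97 CPM at 60 days, and 32.1, 61.9 and 41.5 CPM at 90 days. C1qb measured 30.7, 41.2 and 59.1 CPM at 30 days, 45.8, 39.8 and 36.1 CPM at 60 days, and 40.5, 69.6 and 44.7 CPM at 90 days. C1qc measured 24.2, 27.6 and 38.6 CPM at 30 days, 29.8, 26.3 and 27.8 CPM at 60 days, and 28.6, 52.3 and 32.1 CPM at 90 days. For each chain the lowest value was in 30-day sample 1 and the highest in 90-day sample 2, with 30-day sample 3 second. From 60 to 90 days the log2 fold changes were 0.46 ± 0.37 for C1qa, 0.35 ± 0.27 for C1qb and 0.43 ± 0.23 for C1qc (SE; edgeR quasi-likelihood test, adjusted p = 0.729, 0.709 and 0.546). Without 90-day sample 2 they were 0.15, 0.06 and 0.11 in the same order (edgeR adjusted p = 0.966, 0.979 and 0.941). From 30 to 60 days they were -0.18 ± 0.37, -0.11 ± 0.27 and -0.11 ± 0.23 in the same order (SE; edgeR adjusted p = 0.904, 0.922 and 0.904). In bulk tissue, fewer cells of a type and less RNA per cell cannot be told apart.

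**Figure D1:**
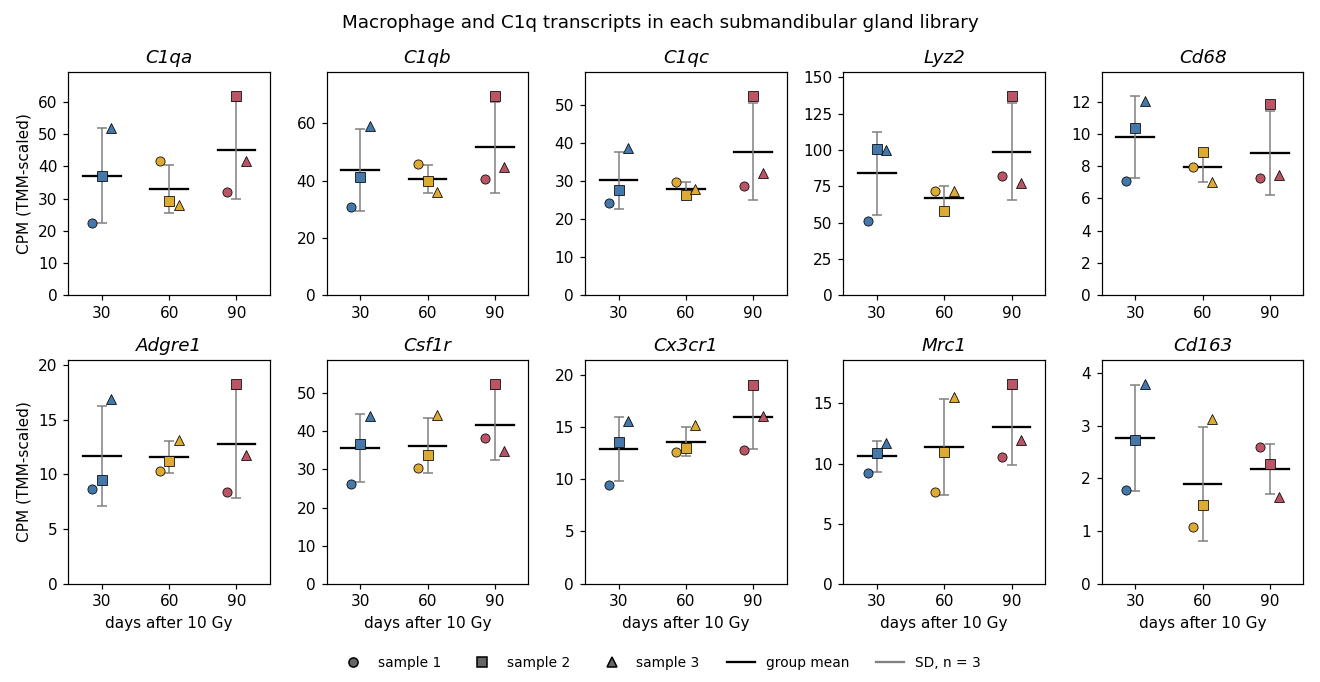
CPM of the 10 genes in each library (vertical axes, each from 0) at 30, 60 and 90 days after 10 Gy (horizontal axes), with marker shapes for the sample number, black bars for group means and grey bars for the SD (n = 3). Within a time point the libraries spread widely, and 90-day sample 2 (square) is the highest library for 8 of the 10 genes.

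Lyz2 had the largest step from 60 to 90 days among the 10 genes, and it did not pass the test. Its values were 51.1, 101 and 99.8 CPM at 30 days, 71.8, 58.0 and 71.8 CPM at 60 days, and 82.2, 137 and 77.4 CPM at 90 days. All 90-day values lay above all 60-day values, while the 30-day values spanned the 60-day range and overlapped the 90-day range. Its 60 to 90 day log2 fold change was 0.56 ± 0.32 (SE; edgeR adjusted p = 0.587), with a 95% interval of 0.88- to 2.46-fold. Without 90-day sample 2 it was 0.24 (edgeR adjusted p = 0.903). Lyz1, the close paralog of Lyz2, measured only 1.15 to 3.39 CPM, and how reads shared by both genes were assigned is not given in the sources used here. Cd68 had 7.08, 10.3 and 12.1 CPM at 30 days, 7.94, 8.90 and 7.003 CPM at 60 days, and 7.24, 11.9 and 7.42 CPM at 90 days. The Cd68 groups overlapped at every step, and the 30 to 60 day log2 fold change of Cd68 was -0.31 ± 0.22 (SE; edgeR adjusted p = 0.609).

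The receptor genes did not pass the test at any step, and their groups overlapped. Csf1r, the receptor for CSF1 and IL-34, measured 26.3, 36.6 and 44.1 CPM at 30 days, 30.5, 33.9 and 44.3 CPM at 60 days, and 38.2, 52.4 and 34.8 CPM at 90 days. Its means were 35.7 ± 8.96, 36.2 ± 7.17 and 41.8 ± 9.32 CPM (SD, n = 3 each), and they differed by less than any of these SDs. Of the 5774 exonic bases of Csf1r, 873 overlap an exon on the opposite strand, and the use of strand in counting is not given in the sources used here. Cx3cr1 measured 9.49, 13.6 and 15.6 CPM at 30 days, 12.6, 12.97 and 15.2 CPM at 60 days, and 12.8, 19.0 and 16.0 CPM at 90 days. Its change from 30 to 90 days, 0.30 ± 0.18 on the log2 scale (SE; edgeR adjusted p = 0.418), had the smallest adjusted p of the 10 genes over the pairwise comparisons. The interval ran from 0.95- to 1.60-fold, and without 90-day sample 2 the change was 0.15 (edgeR adjusted p = 0.852). Adgre1 measured 8.64, 9.50 and 16.9 CPM at 30 days, 10.4, 11.2 and 13.2 CPM at 60 days, and 8.39, 18.2 and 11.8 CPM at 90 days. Its log2 fold changes were -0.02 ± 0.31 from 30 to 60 days and 0.15 ± 0.30 from 60 to 90 days (SE; edgeR adjusted p = 0.989 and 0.909), and the 60-day values all fell inside the range of the 30-day values.

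Mrc1 and Cd163 encode scavenger receptors that mark many resident macrophages, and Mrc1 is also used by some endothelium. Mrc1 measured 9.21, 10.9 and 11.7 CPM at 30 days, 7.63, 10.9 and 15.5 CPM at 60 days, and 10.5, 16.6 and 11.99 CPM at 90 days. The 60-day libraries covered the whole 30-day range, and Mrc1 had a 30 to 90 day log2 fold change of 0.30 ± 0.23 (SE; edgeR adjusted p = 0.583), which was 0.08 without 90-day sample 2 (edgeR adjusted p = 0.956). Cd163 was the scarcest of the 10, with 25 to 77 counts in a library. It measured 1.77, 2.73 and 3.79 CPM at 30 days, 1.08, 1.49 and 3.13 CPM at 60 days, and 2.59, 2.27 and 1.66 CPM at 90 days. Its 30 to 60 day log2 fold change, -0.54 ± 0.38 (SE; edgeR adjusted p = 0.610), was the largest fall among the 10 genes, and its interval of 0.395- to 1.19-fold was also wide.

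None of the 10 genes passed the test in any comparison. In edgeR's quasi-likelihood test with Benjamini-Hochberg adjustment over 15224 genes, 0 of 10 had an adjusted p under 0.05 at 60 against 30 days, where 1.56% of all genes did. The count was also 0 at 90 against 60 days (0.256% of all genes), at 90 against 30 days (3.57%), and in the test of any difference among time points (3.29%). It was 0 again for 60 days against the mean of 30 and 90 days, where 0.256% of all genes were called. At an unadjusted p under 0.05 the count was 0 of 10 in each of these edgeR tests. Of the 15224 genes, 1883, 1637 and 2560 had such a p at 60 against 30, 90 against 60 and 90 against 30 days. DESeq2 and limma-voom called 0 of 10 in the pairwise tests and in the test of any difference. Without the filter on low counts, C1qc alone passed the test of any difference (edgeR adjusted p = 0.0471), and it passed none of the pairwise tests. All 30 intervals of a gene in a pairwise comparison included 0 on the log2 scale. Over these intervals the lowest bound was 0.395-fold (Cd163) and the highest 2.51-fold (C1qa).

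**Figure D2:**
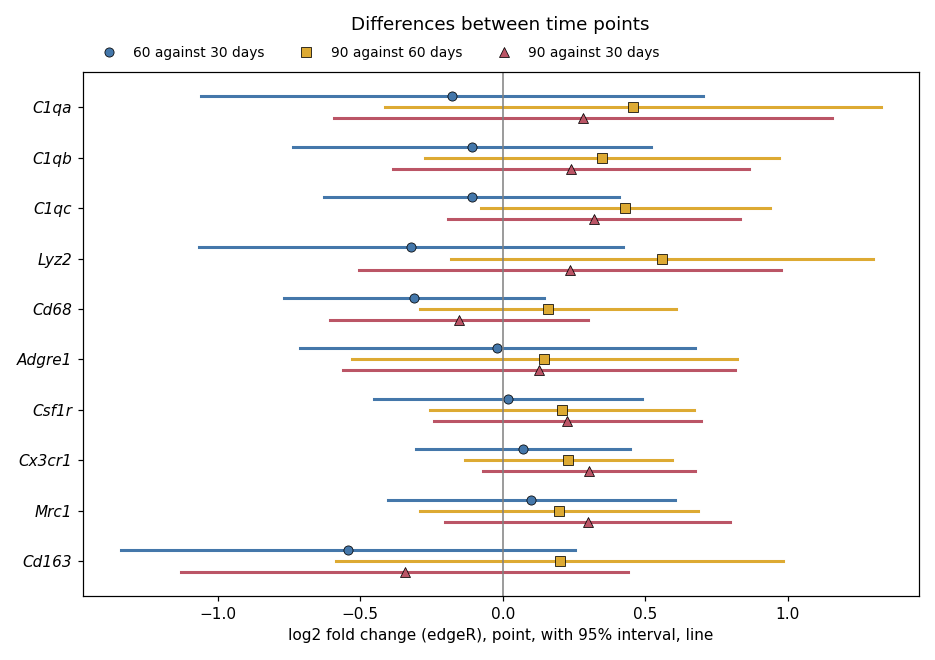
Log2 fold changes (horizontal axis) of the 10 genes (vertical axis) for 60 against 30, 90 against 60 and 90 against 30 days, as points with 95% intervals from the edgeR fit. Every interval crosses 0, and the 90 against 60 day points all lie to the right of 0.

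All 10 genes had a log2 fold change above 0 in that comparison, with a median of 0.22, where 50.1% of all genes tested were above 0 and their median was 0.00. Without 90-day sample 2, 7 of the 10 were above 0, their median was 0.07, and Adgre1, Cd68 and Mrc1 turned to -0.22, -0.12 and -0.03. Groups did not overlap for 1 of the 10 genes, Lyz2, against 15.9% of all genes. From 30 to 60 days 3 of the 10 were above 0 (49.6% of all genes), with a median of -0.11, and 0 of 10 had groups that did not overlap (16.9% of all genes). From 30 to 90 days 8 of the 10 were above 0 (52.1% of all genes), with a median of 0.24, and 0 of 10 had groups that did not overlap (23.2% of all genes). Without 90-day sample 2 the median from 30 to 90 days was -0.03, and without 30-day sample 1 it was 0.03. The 30 to 60 day median turned to 0.16 without 30-day sample 3. Scaling by library size alone left all 10 genes above 0 from 60 to 90 days with a median of 0.39, but it moved the median of all genes to 0.17.

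In some libraries, but not in all, the 10 genes deviated in the same direction. In 30-day sample 1 all 10 lay below their own mean over the 9 libraries, by 0.46 on average on the log2 scale (mean deviation -0.46), and 6 of them had their lowest value there. In 30-day sample 3 all 10 lay above their mean (0.38 on average). In 90-day sample 2 all 10 lay above it (0.56 on average), and 8 had their highest value there, with Cd68 and Cd163 highest in 30-day sample 3. The other 6 libraries had mean deviations between -0.22 and 0.03, with genes on both sides of their means. In 60-day sample 3, 5 genes lay above and 5 below, from -0.39 (C1qa) to 0.53 (Cd163). In 60-day sample 1, 2 lay above and 8 below, from -0.93 (Cd163) to 0.18 (C1qa). The extremes in 30-day sample 1 and 90-day sample 2 were not particular to the 10 genes. The summed myoepithelial markers were also lowest in 30-day sample 1 (303 CPM) and highest in 90-day sample 2 (591 CPM). So were the dendritic cell, T and NK cell, and B and plasma cell sums. The fibroblast, endothelial, neutrophil, mast cell, duct and adipocyte sums did not share both extremes. Several sums largely followed a single gene and need not follow the cell type. Most of the mast cell sum was Kit, of the adipocyte sum Fabp4 and of the dendritic cell sum Itgax (means 37.7, 9.11 and 11.9 CPM). Most of the neutrophil sum was Csf3r and most of the duct sum Klk1. Differences between the means of the time points made up 1.91% (Adgre1) to 26.4% (Lyz2) of a gene's squared deviation in log2 CPM. The median was 16.7% over the 10 genes and 30.8% over all genes tested. The remainder lay between libraries of the same time point. Means of 3 libraries differ somewhat without any effect of time, so these shares do not measure such an effect. The acinar sum also had its extremes in 30-day sample 1 and 90-day sample 2. The 6 summed acinar markers reached 632658 CPM in 30-day sample 1, their highest level, and 303808 CPM in 90-day sample 2, their lowest. The TMM factors were 0.82 and 1.19 there, the lowest and the highest of the 9. Most of the sum was Mucl2, at 518571 and 264469 CPM in these libraries. Mucl2, Prol1, Aqp5 and Chrm3 were highest in 30-day sample 1, but Smgc was lowest there (147 CPM) and Bhlha15 was highest in 60-day sample 1 (567 CPM). Mucl2, Prol1, Aqp5 and Bhlha15 were lowest in 90-day sample 2. The part of these marker and scaling differences in the values of the 10 genes was not tested. The SD of log2 CPM over the 9 libraries had a median of 0.35 for the 10 genes and 0.25 for all genes tested.

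**Figure D3:**
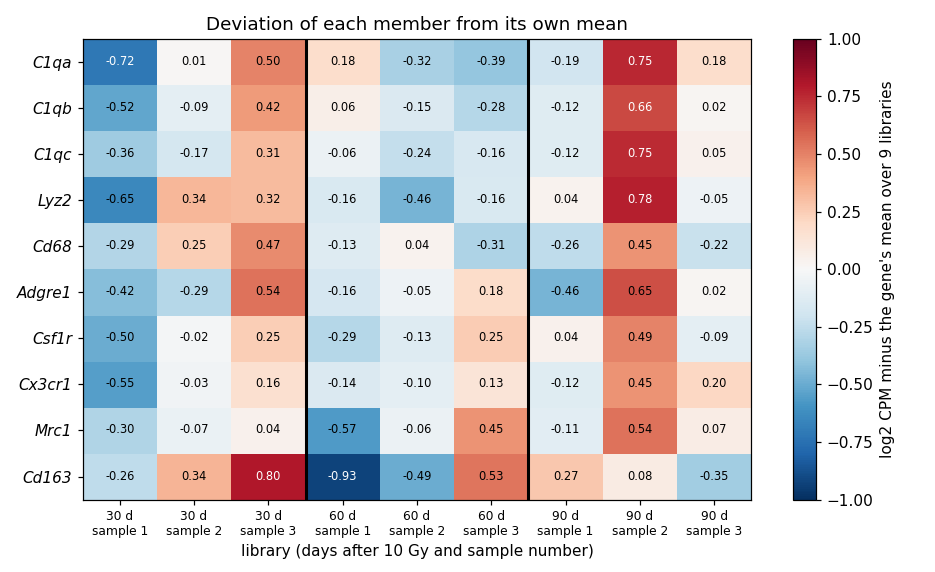
Log2 CPM of each gene (rows) minus its own mean over the 9 libraries, for each library (columns, grouped by days after 10 Gy), with the colour bar from -1 to 1. The columns of 30-day sample 1 (all 10 negative), 30-day sample 3 and 90-day sample 2 (all 10 positive) stand out, rather than whole time points.

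Ratios within a library do not depend on the scaling factor. The mean log2 CPM of C1qa, C1qb and C1qc had an SD of 0.38 over the 9 libraries, whereas the log2 ratio of C1qa to C1qb had an SD of 0.14 and that of C1qc to C1qb an SD of 0.11. The C1q chains thus kept a narrow ratio to each other while their common level differed by a log2 range of 4.67 to 5.93. Relative to that C1q mean, Cx3cr1 and Lyz2 had SDs of 0.22 and 0.21, Cd68 and Adgre1 0.24 and 0.25, and Csf1r 0.27. Mrc1 and Cd163 followed C1q least closely, with SDs of 0.39 and 0.62, and for both the extremes were 60-day samples 1 and 3. Cd68 relative to C1q had a mean log2 ratio of -1.87 ± 0.14 in the 30-day, -2.07 ± 0.23 in the 60-day and -2.32 ± 0.10 in the 90-day libraries (SD, n = 3 each). Its 30-day and 90-day values did not overlap. This ratio was singled out after its values were seen and was not tested.

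The ligands of these receptors were present at all time points. Csf1 stood at 30.9 ± 2.48, 31.2 ± 3.12 and 32.1 ± 2.13 CPM at 30, 60 and 90 days (SD, n = 3 each), and the CX3CR1 ligand gene Cx3cl1 at 35.7 ± 6.99, 36.1 ± 1.11 and 39.1 ± 6.09 CPM. Il34 measured 17.1 ± 1.97, 15.4 ± 1.95 and 19.1 ± 2.96 CPM. Of 10 genes listed as growth factors, ligands and their partners, 9 could be tested, and 1 was called, at 90 against 30 days (edgeR). In that comparison 3.57% of all genes were called, and 2 of the 9 had an unadjusted p under 0.05, as did 2560 of all 15224 genes. At 60 against 30 and 90 against 60 days 0 were called. There 1 and 3 of the 9 had an unadjusted p under 0.05, as did 1883 and 1637 of all 15224 genes. The called gene was Cd47, which encodes a signal that restrains engulfment through SIRPA. Cd47 measured 27.6, 32.5 and 30.8 CPM at 30 days and 34.7, 46.5 and 41.8 CPM at 90 days. It rose by 0.44 ± 0.12 on the log2 scale (SE; edgeR adjusted p = 0.0466). The call did not hold without any single 30-day library (edgeR adjusted p = 0.229, 0.0842 and 0.0929 for samples 1, 2 and 3), without 60-day sample 2 (0.0798), or without 90-day sample 2 or 3 (0.283 and 0.149). It was also lost with limma-voom (adjusted p = 0.0842). From 60 to 90 days, the log2 fold changes were 0.60 ± 0.20 for Cd200, 0.54 ± 0.31 for Csf2rb, 0.39 ± 0.13 for Csf2ra and 0.31 ± 0.14 for Il34 (SE). None passed the test (edgeR adjusted p = 0.288, 0.562, 0.288 and 0.448).

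Among 36 further macrophage and monocyte genes, 31 could be tested. Of these, 2 were higher and 0 lower at 60 than at 30 days (edgeR), where 1.56% of all genes were called. In that comparison 8 of the 31 had an unadjusted p under 0.05, as did 1883 of all 15224 genes. Between 60 and 90 days 0 differed, and 9 had an unadjusted p under 0.05, as did 1637 of all 15224 genes. At 90 against 30 days 3 were higher and 0 lower, where 3.57% of all genes were called. In that comparison 6 of the 31 had an unadjusted p under 0.05, as did 2560 of all 15224 genes. The medians of the 31 log2 fold changes were -0.17, 0.37 and 0.21 in that order, against 0.00, 0.00 and 0.01 for all genes tested.

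Maf, a transcription factor of macrophages that other cell types also use, was among the genes that rose by 60 days. Maf measured 10.6, 11.5 and 14.7 CPM at 30 days, 22.1, 25.9 and 39.0 CPM at 60 days, and 20.5, 34.1 and 30.9 CPM at 90 days, with every later library above every 30-day library. It was higher by 1.24 ± 0.25 at 60 days and by 1.21 ± 0.25 at 90 days (log2, SE; edgeR adjusted p = 0.0362 and 0.0226 against 30 days). The 60-day call was lost without any single 30-day library (edgeR adjusted p = 0.176, 0.141 and 0.0507), without 60-day sample 2 (0.0941) or without 90-day sample 3 (0.0597), and with library-size scaling alone (0.138). The 90-day call was lost without 30-day sample 1 or 2 (edgeR adjusted p = 0.133 and 0.0877) or 90-day sample 2 or 3 (0.0818 and 0.0805). Arg1, which encodes arginase 1 and is often read as a macrophage activation marker, measured 32.2, 42.6 and 31.0 CPM at 30 days, 49.9, 50.6 and 43.4 CPM at 60 days, and 56.1, 62.9 and 57.7 CPM at 90 days. It rose by 0.74 ± 0.12 on the log2 scale from 30 to 90 days (SE; edgeR adjusted p = 0.00180), a call kept in all 17 alternatives. The 10 macrophage and C1q genes did not share the separation that Maf and Arg1 showed, and whether macrophages were the source of these transcripts was not tested.

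**Figure D4:**
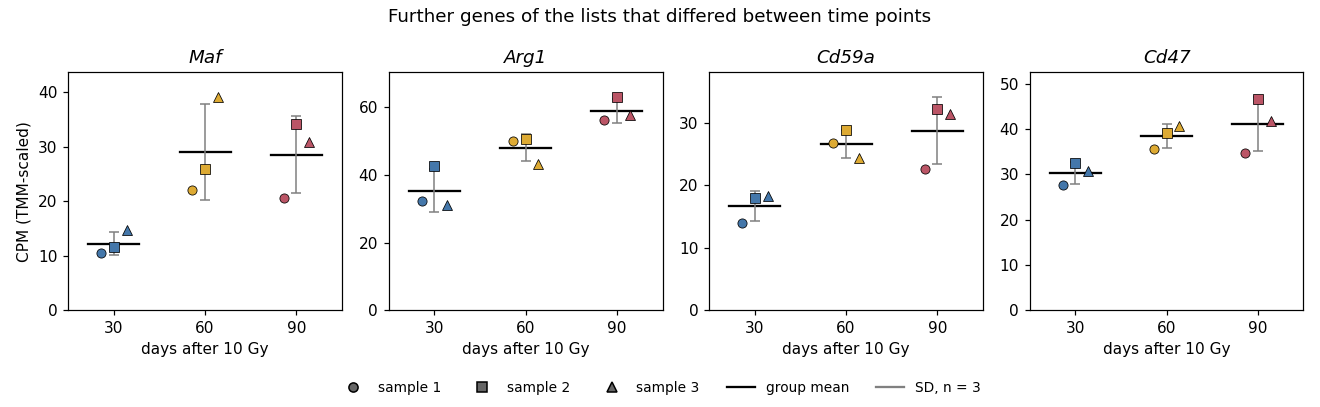
CPM (vertical axes, from 0) of 4 listed genes that passed a pairwise test, by days after 10 Gy (horizontal axes), with marker shapes for the sample number, black bars for means and grey bars for the SD (n = 3). For each gene all 90-day points lie above all 30-day points.

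Other genes named in this list did not pass. Aif1, which encodes the macrophage protein IBA1, went from 2.83 ± 1.29 to 3.32 ± 0.74 and 5.52 ± 1.43 CPM (SD, n = 3 each; edgeR adjusted p = 0.0942 for 90 against 30 days). The Fc receptor gene Fcgr1, the chemokine gene Pf4 and the hyaluronan receptor gene Lyve1 had log2 fold changes of 0.73 ± 0.39, 0.69 ± 0.28 and 0.77 ± 0.46 from 60 to 90 days (SE; edgeR adjusted p = 0.525, 0.372 and 0.579). From 30 to 60 days they had -0.40 ± 0.40, -0.40 ± 0.29 and -1.04 ± 0.47 (SE; edgeR adjusted p = 0.751, 0.633 and 0.368). From 30 to 90 days the changes were 0.34, 0.29 and -0.27 in the same order (edgeR adjusted p = 0.744, 0.672 and 0.837). Vsig4 was at 0 counts in all libraries, and Timd4, Marco, Chil3 and Nos2 were too low to be tested.

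Of 33 complement components, receptors and regulators, 21 could be tested. At 60 against 30 days 1 was higher and 0 lower (edgeR), where 1.56% of all genes were called. In that comparison 1 of the 21 had an unadjusted p under 0.05, as did 1883 of all 15224 genes. At 90 against 60 days 0 differed, and 2 had an unadjusted p under 0.05, as did 1637 of all 15224 genes. At 90 against 30 days 1 was higher and 0 lower, where 3.57% of all genes were called. In that comparison 3 of the 21 had an unadjusted p under 0.05, as did 2560 of all 15224 genes. The called gene was Cd59a, which encodes an inhibitor of the membrane attack complex. Cd59a measured 13.95, 18.1 and 18.2 CPM at 30 days, 26.8, 28.8 and 24.3 CPM at 60 days, and 22.6, 32.2 and 31.4 CPM at 90 days, with no overlap with 30 days. It was higher by 0.67 ± 0.15 at 60 days and by 0.77 ± 0.15 at 90 days (log2, SE; edgeR adjusted p = 0.0255 and 0.00529 against 30 days). The later call was kept in all 17 alternatives, while the earlier one was lost without 30-day sample 1 or 2 (edgeR adjusted p = 0.149 and 0.0642) and without 60-day sample 1 or 2 (0.0586 and 0.159). The earlier call was also lost with library-size scaling alone (edgeR adjusted p = 0.0881) and with limma-voom (adjusted p = 0.0645).

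Further classical pathway genes are given here although they were chosen after their values were seen. The C1 protease genes C1ra and C1s1 stood at 13.7 ± 3.34 and 20.2 ± 7.51 CPM at 30 days and 14.9 ± 3.86 and 23.0 ± 4.23 CPM at 90 days (SD, n = 3 each). C4b went from 15.7 ± 5.32 to 18.7 ± 6.26 CPM and C3, the central component, from 62.7 ± 27.5 to 66.3 ± 24.3 CPM over the same interval. C2 was low, at 1.90 ± 0.78 and 1.75 ± 0.79 CPM. All of these differences were smaller than the SD of either group. The properdin gene Cfp, the C3a receptor gene C3ar1, the C8 chain gene C8g and the clusterin gene Clu had log2 fold changes of 0.67 ± 0.27, 0.60 ± 0.28, -0.57 ± 0.28 and 0.53 ± 0.34 from 60 to 90 days (SE; edgeR adjusted p = 0.382, 0.461, 0.475 and 0.632).

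Markers of lymphocytes were higher in the 90-day libraries. The 10 summed macrophage markers, 9 of which are among the genes above, ranged over 142 to 258 CPM at 30 days, 177 to 194 CPM at 60 days and 185 to 310 CPM at 90 days. Summed over 8 markers, T and NK cell transcripts ranged over 1.42 to 3.39 CPM, 2.07 to 3.80 CPM and 5.32 to 11.8 CPM at the successive time points. The 7 B and plasma cell markers ranged over 4.39 to 10.2 CPM, 4.79 to 6.17 CPM and 13.6 to 60.0 CPM, most of it from the joining chain gene Jchain. The 7 dendritic cell markers ranged over 12.4 to 20.9 CPM, 14.9 to 19.1 CPM and 18.3 to 25.0 CPM, most of it from Itgax. Of the 5 T and NK and 2 B and plasma cell markers that could be tested, 0 were called in the pairwise edgeR tests, and the smallest adjusted p was 0.0550. In both lymphocyte lists the 90-day range lay above the 30-day and 60-day ranges, whereas the macrophage ranges overlapped. Neutrophil markers were low, with S100a8, Retnlg and Cxcr2 at 0 counts in all libraries and the summed level at most 2.38 CPM. The part of these other cells in the values of the 10 genes was not tested.

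Gland cell markers also differed in part. Of 6 acinar markers 1 was lower at 90 than at 60 days and 2 were lower at 90 than at 30 days, and of 7 duct markers 3 were higher at both later time points than at 30 days. Of 6 myoepithelial markers 1 was higher at 90 than at 30 days (edgeR adjusted p = 0.0289). Among all genes, 1.56%, 0.256% and 3.57% were called at 60 against 30, 90 against 60 and 90 against 30 days (edgeR). Of the endothelial, fibroblast, mast cell and adipocyte markers that could be tested (6, 6, 2 and 1), 0 were called in the pairwise edgeR tests.

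**Figure D5:**
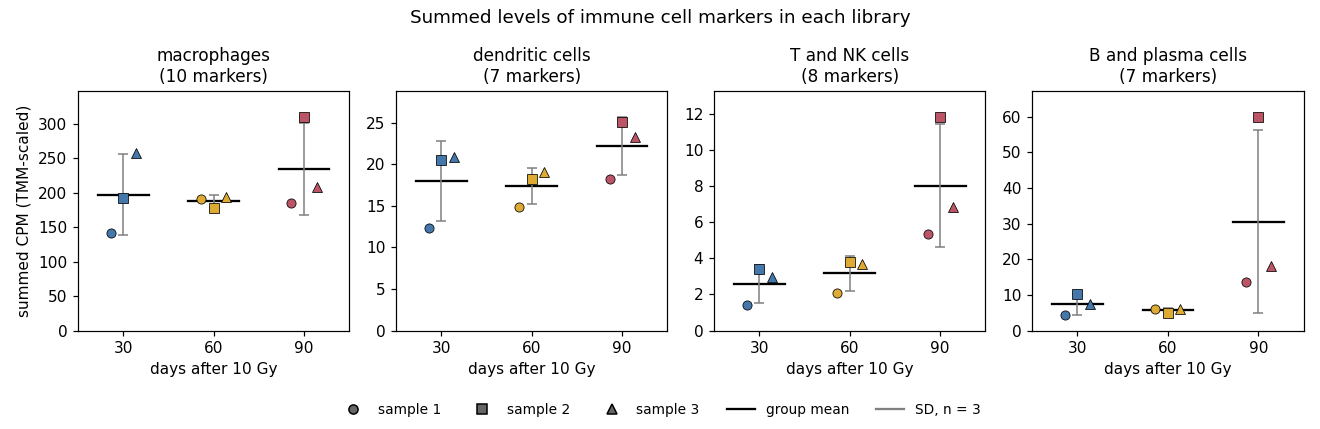
Summed CPM of the markers of 4 immune cell types (vertical axes, from 0) in each library by days after 10 Gy (horizontal axes), with marker shapes for the sample number, black bars for means and grey bars for the SD (n = 3). The 90-day sample 2 (square) is the highest library in each panel, at 60.0 CPM for B and plasma cell markers.

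The genes whose log2 CPM followed the mean of the 10 standardised profiles most closely over the 9 libraries were sought among 13008 others with an average of at least 1 CPM. Among the 10 highest were Sdc3, Evl and Adar (Pearson's r = 0.97 each), Cpne2 (0.96), and Mpeg1, H2-M3, Apoe, Akna and Cxcl12 (0.94 each). Mpeg1 encodes the pore-forming perforin-2 of macrophages, and Apoe a lipid carrier made by macrophages and other cells. Mpeg1 measured 36.3, 46.6 and 62.9 CPM at 30 days, 41.7, 52.6 and 50.2 CPM at 60 days, and 43.8, 74.5 and 51.0 CPM at 90 days. Apoe measured 234, 318 and 453 CPM, then 363, 295 and 338 CPM, then 309, 561 and 353 CPM. All 9 of these genes were lowest in 30-day sample 1, and 8 of them, all but Cpne2, were highest in 90-day sample 2. The correlations describe 9 libraries that share their scaling and depth, and carry no test.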

How the data were processed

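The authors deposited raw read counts, as whole numbers per Ensembl gene identifier with a column per library. The submitters' processing notes name fastp, STAR, featureCounts and mm10. Annotation, strand setting and program versions are not given in the sources used here. Per the labels' protocols, RNA came from 4 sections of 50 µm per gland. Columns were matched to samples by day and sample number, and 3 further columns that match no sample were not used. Symbols were found for 54409 of 54532 identifiers. Positions came from GENCODE mouse release 21 (GRCm38), the build that mm10 denotes, and promoter sequences from RefSeq (GRCm38.p6).

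Genes were filtered with filterByExpr (minimum count 10), leaving 15224, and scaled by TMM. All 9 libraries were fitted with a term for the time point in edgeR 4.0.16 (R 4.3.3), with robust quasi-likelihood tests. The p-values were adjusted by Benjamini-Hochberg across the 15224 genes, at a threshold of 0.05. The 95% intervals use the standard errors and degrees of freedom of that fit. Log2 CPM for deviations and correlations used a prior count of 2. Alternatives were DESeq2-type and library-size scaling, DESeq2 1.42.0, limma-voom (limma 3.58.1), 2 other filters, each library left out, the 6 libraries of a contrast alone, and the sample number as a block.

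The 10 genes, the gene lists and the tests were chosen with earlier results of these data known. A contrast setting 60 days apart from the other time points was added afterwards. Named besides the 10 genes were listed genes with an adjusted p under 0.05 in any test, up to 4 genes per list with the largest log2 fold change for 90 against 60 and 90 against 30 days at an average of 1 CPM or more, and the 10 genes most alike in profile, less a few genes that are not reported here. Lists of mast cell, endothelial, fibroblast, acinar, duct, myoepithelial and adipocyte markers were also summed. A floor of 3 counts corresponds to 0.101 to 0.212 CPM, and such floors cover counting error only, since reads were not tied to single molecules.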

Additional observations from a re-analysis of the deposited data

How the results depend on the processing

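Of 510 log2 fold changes and tests of the 10 genes under the alternatives, 29 had another sign than the value reported, 24 of them on leaving out 1 library, and 0 had an adjusted p under 0.05. The smallest adjusted p among them was 0.0667 (edgeR, C1qc at 90 against 60 days without the filter on low counts). In the test of any difference among time points, 1 of the 10 genes, C1qc, was called without that filter, and 0 under each other alternative. Counts of calls over all genes moved between 73 and 459 at 60 against 30 days, 16 and 354 at 90 against 60 days, 184 and 1045 at 90 against 30 days, and 220 and 1194 for any difference.

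With library-size scaling alone, log2 fold changes that changed sign were 0.0189 for Adgre1 at 60 against 30 days, 0.0650 for Cd68 at 90 against 30 days, and 0.116 for Maf at 90 against 60 days. That of Adgre1 at 60 against 30 days was also 0.0283 with limma-voom and 0.0016 without the filter. The calls among the ligand, further macrophage and complement genes at 60 against 30 days (3 as reported) were 1 with library-size scaling and 6 without the filter. Without the filter they were 3 at 90 against 60 days (0 as reported) and 11 for any difference (4 as reported). The cause was not tested.

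No strong pairing by sample number was seen, but correlations over so few libraries cannot exclude a shared origin or handling. Of 9 pairs with the same number, 1 had a correlation of deviations above 0.1, and the range was -0.06 to 0.19. Pairs with unlike numbers ran from -0.21 to 0.19. Only 1 of the 9 libraries correlated best with its own number in both other groups. With the sample number as a replicate block, 0 of the 10 genes were called in the pairwise tests and in the test of any difference, Adgre1 at 60 against 30 days had a log2 fold change of 0.0171, and the calls among the listed genes at 60 against 30 days were 5.

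On leaving out 1 library in turn, the calls among the listed genes were 0 (without 60-day sample 2) to 6 (without 60-day sample 3) at 60 against 30 days and 0 to 1 (without 60-day sample 3) at 90 against 60 days. They were 2 (without 30-day sample 1) to 7 (without 90-day sample 1) at 90 against 30 days, and 2 to 6 without the same libraries for any difference. At 60 against 30 days the log2 fold changes ran from -0.19 to 0.35 for Adgre1, -0.15 to 0.20 for Csf1r, -0.10 to 0.23 for Cx3cr1, -0.43 to 0.15 for C1qa, -0.30 to 0.17 for C1qb and -0.24 to 0.11 for C1qc, each lowest without 30-day sample 1 and highest without 30-day sample 3. Mrc1 ran from -0.19 to 0.32 without 60-day samples 3 and 1. At 90 against 60 days the ranges were -0.22 to 0.37 for Adgre1, -0.12 to 0.28 for Cd68, -0.0258 to 0.48 for Mrc1, -0.0846 to 0.76 for Cd163, -0.19 to 0.24 for Maf and -0.0175 to 0.19 for Cd47. At 90 against 30 days they were -0.23 to 0.49 for Adgre1, -0.43 to 0.0132 for Cd68, -0.0225 to 0.60 for C1qa, -0.0438 to 0.51 for C1qb and -0.0796 to 0.39 for Lyz2, each lowest without 90-day sample 2. Depth limited Cd163 most, at 25 to 77 counts a library.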
